A study of Homo sapiens with 6 samples.

Results

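A set of 9 regulators of the primitive streak and mesendoderm were followed across clones of H9, an established human embryonic stem cell line: MIXL1, EOMES, APLNR, GSC, MESP1, TBXT, RIPPLY2, EVX1 and LHX1. A gene was chosen by name, with earlier results of these arrays known, and its brightest named array row was to give its level. Of the 9 listed genes, 8 had a named row, out of 14884 genes with one, and each of the 8 had exactly 1 row, so brightness made no choice among rows. TBXT, the gene of the T-box factor brachyury, had no named row and is not analysed here. The design held 3 groups of 2 arrays. CTRL clones carried an HIV-derived vector (pHIV) with the EF1α promoter and eGFP. Clones of the gamma_ON group carried the same vector with H2A.X bearing S139E, and gamma_OFF clones carried it with H2A.X bearing T136A and S139A. The exchanged serine of the histone variant H2A.X is phosphorylated next to DNA breaks, to give γH2A.X; glutamate resembles the phosphorylated residue and alanine cannot be phosphorylated. All groups shared the EF1α promoter, eGFP, a sort for eGFP and the pluripotency antigen TRA 1-60, plating of single cells on mouse embryonic fibroblasts, and growth in medium conditioned by them with 8 ng/ml of bFGF. A vector with unsubstituted H2A.X was not among the groups, and the labels name no change to the cells' own H2A.X gene. Each array is labelled as a clone with a number, and the labels do not say whether numbers 1 and 2 are separate clones or cultures of 1 clone; the p-values cover the spread between arrays, which may be technical or that of 1 clone.

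The primitive streak is the strip of the early embryo where epiblast cells, the counterparts of pluripotent stem cells, become mesoderm and endoderm. WNT, NODAL and BMP signals switch on its genes, and FGF signals keep them on. In human pluripotent cells the T-box factors EOMES and brachyury and the homeobox factors MIXL1 and GSC mark the mesendoderm state, from which MESP1 leads to cardiac mesoderm and EOMES also to definitive endoderm.

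The promoter sequences show what 3 homeobox genes of the set, MIXL1, GSC and EVX1, have next to their start sites; LHX1, APLNR and MESP1 have no window in the table used. The promoter table, built from RefSeq on GRCh38.p14, held windows for 6 of the 9 genes. For MIXL1, GSC and EVX1 the 250 bases before the start lay outside the annotated gene, and they are printed 5′ to 3′ on the gene's strand because MIXL1 was the member with the widest difference between groups while GSC and EVX1 are homeobox genes of the same tissue that were not called. Capitals mark matches, on either strand, to letters bound by the factors that act on streak genes.
MIXL1, chr1:226223414-226223663, plus strand: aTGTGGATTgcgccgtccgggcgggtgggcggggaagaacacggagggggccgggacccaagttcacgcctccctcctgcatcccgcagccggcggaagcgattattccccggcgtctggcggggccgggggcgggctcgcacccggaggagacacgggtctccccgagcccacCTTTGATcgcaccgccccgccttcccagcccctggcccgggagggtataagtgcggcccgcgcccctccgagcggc
GSC, chr14:94770114-94770363, minus strand: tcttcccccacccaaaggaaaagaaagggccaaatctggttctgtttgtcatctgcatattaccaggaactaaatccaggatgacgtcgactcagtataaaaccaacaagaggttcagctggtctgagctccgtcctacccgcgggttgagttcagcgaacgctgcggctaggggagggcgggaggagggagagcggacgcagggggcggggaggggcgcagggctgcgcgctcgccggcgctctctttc
EVX1, chr7:27242552-27242801, plus strand: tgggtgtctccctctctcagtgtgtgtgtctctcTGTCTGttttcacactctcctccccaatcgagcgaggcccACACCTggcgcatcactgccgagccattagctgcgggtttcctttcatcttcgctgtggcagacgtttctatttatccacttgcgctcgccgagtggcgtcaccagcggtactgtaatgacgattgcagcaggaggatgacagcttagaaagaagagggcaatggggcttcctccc
MIXL1 held TGTNNATT, the letters of FOXH1, a partner of the SMAD proteins that NODAL activates, 249 to 242 bases before its start. It also held CTTTGAT, the letters of the TCF/LEF factors of the WNT pathway, 76 to 70 bases before its start. EVX1 held AGGTGT, the core of a T-box site, on the opposite strand 176 to 171 bases before its start, and CAGACA, letters bound by SMAD proteins, on the opposite strand 216 to 211 bases before it. Among 35116 windows of this length, 9.88% held the FOXH1 letters, 2.26% the TCF/LEF letters, 9.57% the T-box letters and 13.6% the SMAD letters. The POU octamer ATGCNAAT, present in 2.69% of windows, had no match in these 3 windows, and GSC had none for any of the 5 motifs. The windows of EOMES, RIPPLY2 and TBXT, which are not printed, also held no match to any of the 5 motifs. EOMES was called in gamma_ON against CTRL, as MIXL1 was. A window of TBXT also lay outside its gene. No searched motif overlapped another in a printed window. These matches are letters in a window and do not show binding.

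Values are log2 expression levels, in which a step of 1 is a doubling of the array signal. They are compared here between arrays for 1 gene at a time, since levels of different genes on an array are not comparable. Differences were tested by limma across all 14884 genes, and a gene is called when its Benjamini-Hochberg adjusted p over all of them is under 0.05. Array medians lay between 6.11 and 6.25, and gamma_OFF replicate 2 had the narrowest spread over genes, with an SD of 1.64 against 1.70 to 1.81 on the other arrays. In bulk RNA such as this, a change in the number of cells that express a gene and a change in its RNA per cell cannot be told apart.

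MIXL1, EOMES and APLNR rose in gamma_ON, by between 2.27-fold and 3.85-fold over CTRL, while the other 5 measured members were not called in that comparison. MIXL1, a paired-like homeobox factor of the streak, read 7.87 and 7.55 in CTRL, 9.69 and 9.62 in gamma_ON, and 7.97 and 8.43 in gamma_OFF. Both gamma_ON arrays lay above every other array, by more than the distance between any replicates. The log2 fold change of gamma_ON over CTRL was 1.94 (SE 0.17, adjusted p = 0.000866), a 3.85-fold rise from 7.71 ± 0.22 to 9.66 ± 0.05 (SD, n = 2). The rise was called whichever array was left out, with log2 fold changes of 1.79 to 2.10.

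EOMES, a T-box factor that starts the mesendoderm programme, read 7.93 and 7.73 in CTRL, 9.04 and 8.99 in gamma_ON, and 7.29 and 7.46 in gamma_OFF. Its 3 groups did not overlap: gamma_ON was highest and gamma_OFF lowest. EOMES rose 2.27-fold in gamma_ON, with a log2 fold change of 1.18 (SE 0.13, adjusted p = 0.00294), from 7.83 ± 0.14 to 9.01 ± 0.04 (SD, n = 2). Without gamma_ON replicate 1 the adjusted p was 0.0522, at a log2 fold change of 1.16.

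APLNR, the receptor gene for the peptides apelin and ELABELA and a surface marker of early mesoderm, read 7.45 and 7.23 in CTRL, 8.81 and 8.37 in gamma_ON, and 7.16 and 6.93 in gamma_OFF. The groups did not overlap and stood in the same order as for EOMES. APLNR rose 2.38-fold in gamma_ON, with a log2 fold change of 1.25 (SE 0.17, adjusted p = 0.00869). The call was lost when CTRL replicate 2 (adjusted p = 0.102) or gamma_ON replicate 1 (adjusted p = 0.0854) was left out. Of its ligand genes only APLN was measured; it stood at -0.18 in gamma_ON over CTRL (adjusted p = 0.645).

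**Figure D1:**
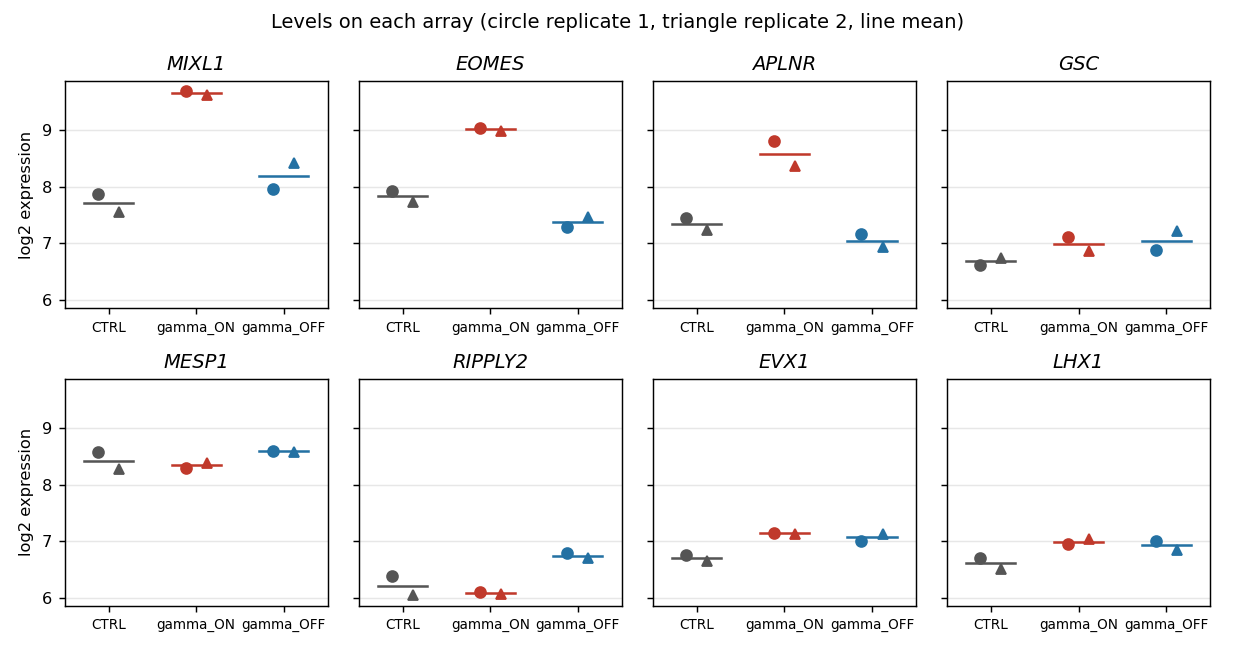
Levels of the 8 measured genes on each array, in log2 units, by group; circles are replicate 1, triangles replicate 2 and lines the group means. MIXL1, EOMES and APLNR stand higher on both gamma_ON arrays than on the other 4, and RIPPLY2 stands higher on both gamma_OFF arrays.

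The homeobox genes GSC, EVX1 and LHX1 stood higher on both arrays of each H2A.X group than on either CTRL array. The mean differences were 0.31 to 0.44 log2 units, and none of them was called against CTRL. Of all genes, 30.0% stood higher on both gamma_ON arrays than on either CTRL array, and 31.1% on both gamma_OFF arrays. The share of genes higher in both H2A.X groups was not counted. GSC, which acts in the organizer at the front of the streak, read 6.62 and 6.74 in CTRL, 7.12 and 6.86 in gamma_ON, and 6.88 and 7.21 in gamma_OFF. Its difference from CTRL was 0.31 (SE 0.15, adjusted p = 0.377) in gamma_ON and 0.37 (SE 0.15, adjusted p = 0.136) in gamma_OFF. Without gamma_OFF replicate 1, which leaves 1 gamma_OFF array, the log2 fold change of GSC in gamma_OFF was 0.53. Gamma_ON and gamma_OFF overlapped, and the 95% interval of their difference ran from -0.39 to 0.28.

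EVX1, a homeobox factor of the posterior streak, read 6.76 and 6.64 in CTRL, 7.15 and 7.12 in gamma_ON, and 7.00 and 7.13 in gamma_OFF. The difference from CTRL was 0.44 (SE 0.12, adjusted p = 0.116) in gamma_ON and 0.36 (SE 0.12, adjusted p = 0.0821) in gamma_OFF. With array weights EVX1 was called in gamma_ON (adjusted p = 0.0371), in a fit that called 803 genes against 230 in the main fit. Without gamma_OFF replicate 1 its log2 fold change in gamma_OFF was 0.43. LHX1, a LIM homeobox gene of the anterior streak and the node, read 6.70 and 6.51 in CTRL, 6.95 and 7.03 in gamma_ON, and 7.01 and 6.84 in gamma_OFF. It stood 0.39 above CTRL in gamma_ON (SE 0.13, adjusted p = 0.186) and 0.33 above it in gamma_OFF (SE 0.13, adjusted p = 0.122). For both genes gamma_ON and gamma_OFF overlapped, with 95% intervals of the difference from -0.19 to 0.34 for EVX1 and from -0.22 to 0.35 for LHX1. These comparisons with CTRL share the CTRL arrays. GSC, EVX1 and LHX1 read 6.51 to 7.21 over the 6 arrays, not far above the array medians of 6.11 to 6.25.

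MESP1 and RIPPLY2, which act after the streak in nascent and segmenting mesoderm, were not higher in gamma_ON than in CTRL. MESP1, a basic helix-loop-helix factor at the start of the cardiac lineage, read 8.57 and 8.28 in CTRL, 8.29 and 8.39 in gamma_ON, and 8.60 and 8.57 in gamma_OFF. It was not called in any comparison; its difference in gamma_ON over CTRL was -0.09, with a 95% interval from -0.39 to 0.21, which leaves out a rise of the size seen for EOMES. RIPPLY2, a co-repressor that ends the T-box programme as somites form, read 6.38 and 6.04 in CTRL, 6.10 and 6.07 in gamma_ON, and 6.78 and 6.70 in gamma_OFF. The gamma_OFF arrays were the highest, and CTRL and gamma_ON overlapped. In gamma_ON its difference from CTRL was -0.12 (SE 0.14, adjusted p = 0.746).

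Across the 8 genes, limma called 3 higher and 0 lower in gamma_ON against CTRL, where 0.739% of all genes were called higher and 0.806% lower. At an unadjusted p under 0.05 the counts were 5 and 0, against 8.65% of all genes higher and 6.15% lower. The groups did not overlap for 6 genes, all higher in gamma_ON, against 30.0% of all genes higher and 22.3% lower. The median log2 fold change was 0.41 over the 8 genes and 0.02 over all genes. Since the members were picked with these results known, the counts describe them and are no independent evidence.

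In gamma_OFF, EOMES and APLNR read lower on both arrays than on either CTRL array, and MIXL1 read higher. MIXL1 stood 0.49 above CTRL (SE 0.17, adjusted p = 0.0993), EOMES 0.45 below it (log2 fold change -0.45, SE 0.13, adjusted p = 0.0565) and APLNR at -0.29 (SE 0.17, adjusted p = 0.262), so none of these was called. Without gamma_OFF replicate 1, which leaves 1 gamma_OFF array, the log2 fold change of MIXL1 was 0.72. EOMES was called lower with dim genes left out (adjusted p = 0.0345) and with a variance trend and robust fitting (adjusted p = 0.0355). RIPPLY2 read 6.04 to 6.78 over the 6 arrays, close to the array medians of 6.11 to 6.25, so its signal was dim. It rose by 0.53 (SE 0.14, adjusted p = 0.0469), 1.44-fold. That call sat at the threshold: with any of the 6 arrays left out the adjusted p lay between 0.0609 and 0.291, at log2 fold changes of 0.36 to 0.70, and it was 0.0836 with array weights, 0.083 in a fit of gamma_OFF and CTRL alone, 0.0678 after quantile normalization, 0.0557 after rescaling of the signal range and 0.0507 with every row tested.

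In gamma_OFF against CTRL limma called 1 of the 8 genes higher and 0 lower, where 2.77% of all genes were called higher and 6.08% lower. At an unadjusted p under 0.05 the counts were 5 and 1, against 14.1% of all genes higher and 16.3% lower. Groups did not overlap for 5 genes that were higher and 2 that were lower, against 31.1% and 30.1% of all genes. The median over the 8 genes was 0.34 and over all genes 0.01. Over all genes 412 were called higher and 905 lower, and 538 higher and 697 lower once every array was scaled to the same signal range.

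**Figure D2:**
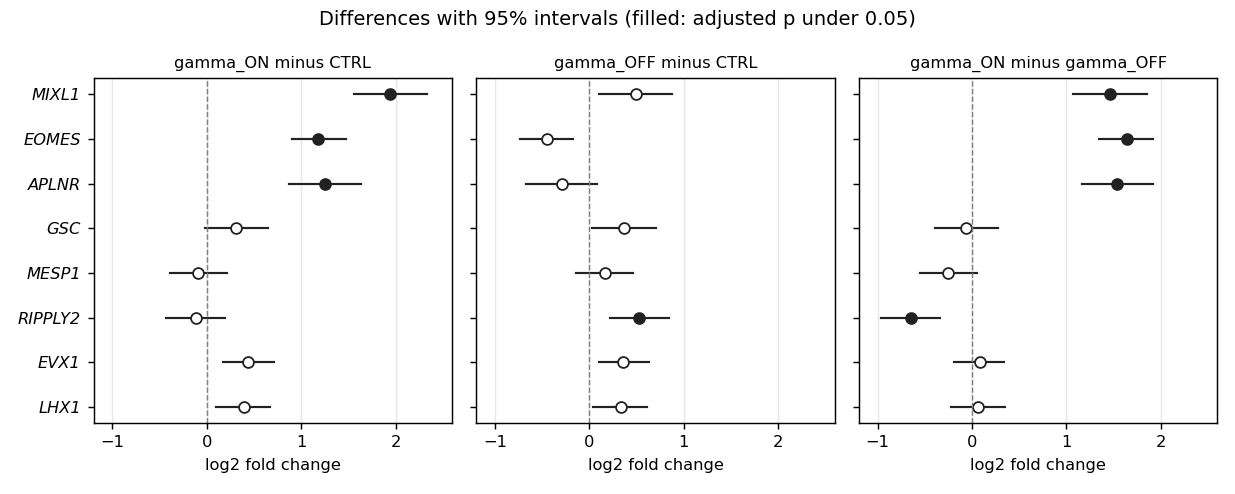
Log2 fold changes of the 8 genes in the 3 comparisons, with 95% intervals from limma; filled circles are called and open circles are not. MIXL1, EOMES and APLNR are called higher in gamma_ON against both other groups, and RIPPLY2 is called on the gamma_OFF side of both of its comparisons.

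Set directly against each other, the H2A.X groups differed in 4 of the 8 genes. EOMES was 3.11-fold higher in gamma_ON than in gamma_OFF (log2 fold change 1.64, SE 0.13, adjusted p = 0.000342), APLNR 2.92-fold (1.54, SE 0.17, adjusted p = 0.0028) and MIXL1 2.75-fold (1.46, SE 0.17, adjusted p = 0.0041). EOMES and APLNR were called whichever array was left out, with adjusted p-values up to 0.0107 and 0.0368, while MIXL1 had 0.0622 without gamma_ON replicate 1. RIPPLY2 was lower in gamma_ON by 0.65 (log2 fold change -0.65, SE 0.14, adjusted p = 0.0385). Its adjusted p was 0.248 without gamma_ON replicate 1, 0.113 without gamma_ON replicate 2, 0.0995 without gamma_OFF replicate 2, 0.0771 with array weights and 0.0518 after quantile normalization.

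The remaining 4 genes, GSC, MESP1, EVX1 and LHX1, were not called between the H2A.X groups, with log2 fold changes from -0.25 for MESP1 to 0.08 for EVX1. Of the 8 genes 3 were called higher and 1 lower in gamma_ON, where 3.98% of all genes were called higher and 2.02% lower. Groups did not overlap for 3 genes higher and 2 lower, MESP1 and RIPPLY2, against 35.8% and 27.5% of all genes. The median over the 8 genes was 0.07, and 0.02 over all genes. A moderated F test over the 3 groups called MIXL1 (adjusted p = 0.00147), EOMES (adjusted p = 0.00075), APLNR (adjusted p = 0.00356) and RIPPLY2 (adjusted p = 0.0394), 4 of 8, where 8.32% of all genes were called.

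The order of the group means was gamma_ON, gamma_OFF, CTRL for MIXL1, and the last neighbours, gamma_OFF and CTRL, were not called apart. For EOMES and APLNR it was gamma_ON, CTRL, gamma_OFF, again with the last neighbours not called apart. RIPPLY2 ran gamma_OFF, CTRL, gamma_ON, with CTRL and gamma_ON not called apart. The replicate SD reached 0.33 log2 units in gamma_OFF (MIXL1), 0.31 in gamma_ON (APLNR) and 0.24 in CTRL (RIPPLY2).

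**Figure D3:**
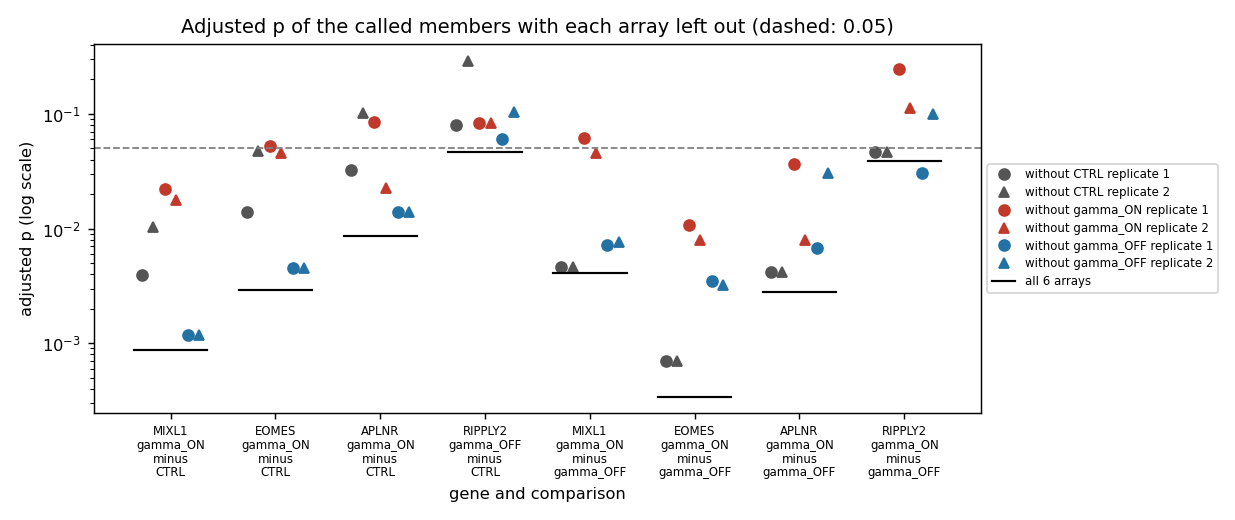
Adjusted p (log axis) of the 8 calls made for the measured genes, with all 6 arrays (black line) and with each array left out (symbols coloured by the group of the missing array); the dashed line marks 0.05. The rise of MIXL1 over CTRL and the differences of EOMES and APLNR between the H2A.X groups stay under the line in every fit, while RIPPLY2 over CTRL is above it in each fit with an array missing.

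Likeness of levels was measured as the root mean square difference over the 6 arrays between genes, each centred on its own mean, among 10277 genes. These reached 6 log2 units on at least 2 arrays, and their symbols were not those of uncharacterised loci, small RNAs, olfactory receptors or antisense genes. EOMES and APLNR lay 0.171 log2 units apart, whereas MIXL1 lay 0.418 from EOMES and 0.417 from APLNR. The genes closest to EOMES were DPP4 (0.137), a cell-surface dipeptidase gene, APLNR, USP51 (0.191), NTS (0.209), which encodes neurotensin, and ERP27 (0.215). Closest to APLNR were USP51 (0.159), EOMES, DPP4 (0.201), NTS (0.216) and VTN (0.237).

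MIXL1 had other neighbours, apart from VTN, which was also among those of APLNR. The closest was HAND1 (0.204), a factor of lateral mesoderm and extraembryonic tissue, followed by ITIH2 (0.208), APOC3 (0.216), PLG (0.237) and VTN (0.255), which encode plasma proteins made by the liver. HAND1 stood at 1.59 in gamma_ON over CTRL (adjusted p = 0.0012) and at 0.43 in gamma_OFF over CTRL (adjusted p = 0.0932). Small distances also arise between genes that hardly vary: EVX1 and LHX1 lay 0.096 apart and GSC and EVX1 0.128.

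**Figure D4:**
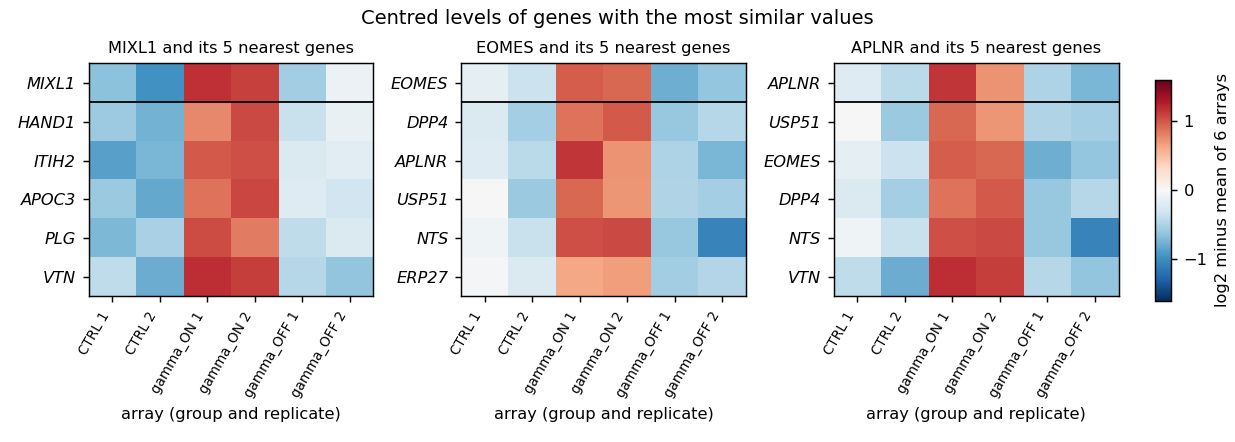
Levels of MIXL1, EOMES and APLNR and of the 5 genes nearest to each, as log2 minus the gene's mean over the 6 arrays (colour), by array. The neighbours were picked by likeness over these same 6 arrays, so a pattern shared with the member follows from the choice. Every gene shown is above its mean on both gamma_ON arrays. Between gamma_OFF and CTRL means the neighbours of EOMES differ by -0.63 to -0.15, those of MIXL1 by 0.05 to 0.59.

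Genes of the NODAL pathway, the signal that induces MIXL1, EOMES and GSC, moved in both directions. For this and the later lists, 0.739% of all genes were called higher and 0.806% lower in gamma_ON against CTRL. The shares were 2.77% and 6.08% in gamma_OFF against CTRL, and 3.98% and 2.02% between the H2A.X groups. The medians over all genes were 0.02, 0.01 and 0.02. Of 13 measured NODAL genes 2 rose and 1 fell in gamma_ON against CTRL, with a median of 0.03. GDF3, which encodes a ligand that works with NODAL, rose by 1.98 (SE 0.15, adjusted p = 0.000519), NODAL rose by 0.76 (SE 0.11, adjusted p = 0.0146) and the NODAL antagonist gene LEFTY2 fell by 1.00 (SE 0.16, adjusted p = 0.0196). In gamma_OFF LEFTY2 rose by 0.74 (SE 0.16, adjusted p = 0.0276), FST, which encodes the activin-binding follistatin, fell by 0.54 and the inhibitory SMAD7 fell by 0.50, with a median of -0.00 over the list. Between the H2A.X groups 4 were higher in gamma_ON, GDF3, FST, SMAD7 and NODAL, and LEFTY2 (-1.74, SE 0.16, adjusted p = 0.000995) and LEFTY1 (-0.77) were lower. GDF3 in its 2 comparisons and LEFTY2 between the H2A.X groups were called whichever array was left out. The other calls of this list were each lost without 1 or more arrays. Against CTRL in gamma_ON, NODAL was lost without any of the CTRL and gamma_ON arrays (adjusted p up to 0.169), and LEFTY2 without CTRL replicate 1, CTRL replicate 2 or gamma_ON replicate 2 (up to 0.136).

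Of 13 measured WNT genes 1 rose in gamma_ON against CTRL, the antagonist and target DKK4 (1.18, SE 0.16, adjusted p = 0.00869), and the median was 0.29. DKK4 lost its call without CTRL replicate 2 (0.103), gamma_ON replicate 1 (0.115) or gamma_ON replicate 2 (0.0756). In gamma_OFF 1 fell, the co-receptor gene LRP6 (-0.59, adjusted p = 0.0434, and up to 0.236 without any 1 array but gamma_OFF replicate 1), with a median of -0.11. Between the H2A.X groups LEF1 (1.01, SE 0.23), DKK1, DKK4, LGR5 and RNF43, which are known WNT targets, were higher in gamma_ON and the receptor gene FZD7 was lower (-0.63), with a median of 0.45. Each of these 6 lost its call without gamma_ON replicate 1; LEF1 had an adjusted p of 0.0429 with all arrays and 0.28 without that one.

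Of 14 BMP and FGF genes only BMP4 rose in gamma_ON against CTRL (0.76, SE 0.12, adjusted p = 0.0193, and 0.0803 to 0.205 without any 1 CTRL or gamma_ON array), with a median of -0.04. In gamma_OFF 6 fell: the feedback inhibitors of FGF signalling SPRY2 (-1.03, SE 0.14, adjusted p = 0.00786), SPRY4 (-0.78) and DUSP6 (-0.74), the FGF target ETV5 (-0.71), the ligand BMP2 (-0.76) and SMAD5 (-0.53). The median was -0.29. None of the 6 was called without CTRL replicate 1, where SPRY2 had an adjusted p of 0.0554; that was the only array SPRY2 depended on, while the other 5 each lost the call without further arrays too. Between the H2A.X groups 6 were higher in gamma_ON, led by DUSP6 (0.92, SE 0.18, adjusted p = 0.0317), with a median of 0.43. All 6 lost their call without gamma_ON replicate 1, with adjusted p-values from 0.208 to 0.296.

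Of 21 other measured streak regulators, limma called 0 in gamma_ON against CTRL, where 0.739% of all genes were called higher and 0.806% lower. At an unadjusted p under 0.05, 6 were higher and 0 lower, against 8.65% of all genes higher and 6.15% lower. The median was 0.13. SP8 had the largest difference, 0.65 (adjusted p = 0.228). FOXA2 and SOX17, which mark endoderm leaving the streak, stood at 0.08 (adjusted p = 0.814) and 0.02 (adjusted p = 0.962). In gamma_OFF 4 fell: SNAI2 (-1.07, SE 0.16, adjusted p = 0.00851), a repressor of epithelial genes, RSPO3 (-1.02), which strengthens WNT signals, HAS2 (-0.93), a hyaluronan synthase gene, and TBX3 (-0.75). The same 4 genes were higher in gamma_ON than in gamma_OFF, together with SP8 and DKK1, and HAS2 led with 1.44 (SE 0.17, adjusted p = 0.00387). Without CTRL replicate 1 each of the 4 lost its call in gamma_OFF, with adjusted p-values from 0.052 to 0.149, and without gamma_ON replicate 1 each of the 6 lost its call between the H2A.X groups, HAS2 with 0.059.

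**Figure D5:**
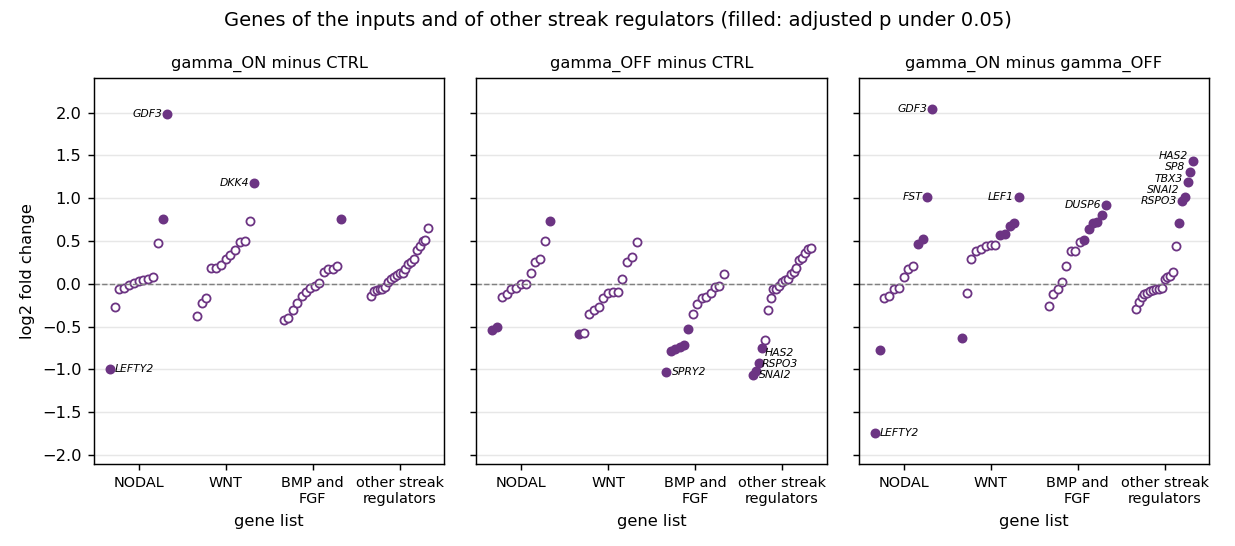
Log2 fold changes of the measured genes of the NODAL, WNT and BMP and FGF lists and of other streak regulators, sorted within each list; filled circles are called, and called genes of at least 0.9 in size are named. GDF3 reaches 1.98 in gamma_ON minus CTRL, while 6 called genes of the BMP and FGF list and 4 of the other streak regulators lie below 0 in gamma_OFF minus CTRL.

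Some markers of other cell types were called in gamma_ON against CTRL, as MIXL1, EOMES and APLNR were. Of 11 measured genes of an endoderm list AFP (4.37, SE 0.14, adjusted p = 2.54e-06) and TTR (1.38, SE 0.17, adjusted p = 0.00516) rose. CXCR4 fell by 0.62, and the median over the list was 0.11. The 8 not called ran from -0.15 for HHEX to 0.36 for FOXA1, with SOX17 at 0.02, FOXA2 at 0.08 and GATA6 at 0.30. At an unadjusted p under 0.05, 2 of the 11 were higher and 1 lower, against 8.65% of all genes higher and 6.15% lower. Whether the endoderm genes rose as a group was not tested. The mean log2 level of the list, which AFP and TTR enter, was 8.09 and 7.96 in CTRL, 8.55 and 8.57 in gamma_ON, and 7.89 and 7.94 in gamma_OFF. Of 12 lateral and cardiac mesoderm genes HAND1, ISL1 (0.80) and BMP4 rose, with a median of 0.49; the mean was 7.05 and 6.93 in CTRL, 7.38 and 7.45 in gamma_ON, and 7.10 and 7.17 in gamma_OFF. Of 10 trophoblast and amnion genes HAND1 and ISL1, which the mesoderm list also holds, rose, with a median of 0.20; the mean was 7.11 and 7.08 in CTRL, 7.48 and 7.54 in gamma_ON, and 7.02 and 7.14 in gamma_OFF. AFP and HAND1 were called over CTRL whichever array was left out, whereas each of the others was lost without gamma_ON replicate 1 or gamma_ON replicate 2 (up to 0.0746 for TTR, 0.288 for CXCR4 and 0.173 for ISL1), and all but TTR without either CTRL array too. In gamma_OFF against CTRL AFP rose by 1.02, while TTR (-0.96), GATA6 (-0.56) and the trophoblast gene GATA3 (-0.83) fell; AFP was lost without CTRL replicate 2 (0.0558) and the others without CTRL replicate 1 (0.087 to 0.218). Of the lateral and cardiac genes limma called 0 there, with 5 higher and 2 lower at an unadjusted p under 0.05. Over all genes 14.1% were higher and 16.3% lower at that threshold. The part of these cell types in the levels of the streak genes was not tested.

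The labelled cell type was checked against 15 measured markers of pluripotent cells, whose mean level was 10.03 and 10.13 in CTRL, 10.29 and 10.23 in gamma_ON, and 10.30 and 10.34 in gamma_OFF. POU5F1, the gene of OCT4, rose by 0.71 in gamma_ON (adjusted p = 0.0441, and 0.113 to 0.283 without any 1 CTRL or gamma_ON array); it has near-identical pseudogenes, so its value is uncertain. SOX2 stood at 0.24 (adjusted p = 0.389) and NANOG at 0.25 (adjusted p = 0.654). NANOG read only 6.26 to 7.29 over the 6 arrays, not far above the array medians of 6.11 to 6.25, so its row says little about these cells. In gamma_OFF PRDM14 (0.54) and DNMT3B (0.46) rose, and both lost their call without any 1 array but gamma_OFF replicate 1. Of 12 fibroblast markers 4 were measured; TAGLN fell by 0.62 in gamma_ON and by 0.55 in gamma_OFF, with neither call kept without either CTRL array (0.141 to 0.243), and LUM was 1.10 higher in gamma_ON than in gamma_OFF (adjusted p = 0.026, and 0.104 to 0.194 without gamma_ON replicate 1, gamma_ON replicate 2 or gamma_OFF replicate 2). The mean of these 4 was 8.19 and 8.04 in CTRL, 8.25 and 8.20 in gamma_ON, and 7.88 and 7.74 in gamma_OFF. The feeder cells were mouse cells, and the part of their RNA in these levels was not tested.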

How the data were processed

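Total RNA of 6 H9 samples was hybridised to expression arrays, 1 per sample. The deposited values are log2 levels per array row, made by the authors with RMA and Partek 6.6, per the submitters' processing notes; settings, build and annotation were not given in the sources used here. Of 53617 rows, 16098 had 1 gene symbol, 0 had several and 37519 are unnamed here; all 16098 identifiers matched RefSeq (GRCh38.p14). The brightest row stood for each of the 779 genes with several rows. Groups came from the sample descriptions; the labels give no scan date. Differences were tested across all 14884 genes with limma 3.58.1 in R 4.3.3 (lmFit and eBayes, 1 fit over 6 arrays, 3 residual and 6.05 prior degrees of freedom, two-sided), which gave every adjusted p-value; an exact test of 2 against 2 arrays cannot reach 0.05. The number of arrays limits the precision. The fit was tested on simulated data. The members and lists were chosen with earlier results of these data known. All members are named. Of other lists, called genes with the largest changes are named, at most 4 per list and comparison, or the largest change where none was called. Also named are POU5F1, NANOG, SOX2, APLN and the 5 genes nearest MIXL1, EOMES and APLNR. FOXA1, FOXA2, SOX17, HHEX and genes that complete a count were added after their values were seen. Alternatives varied the spread model, weights, arrays, dim genes (under 6 log2 units on more than 4 arrays), normalization and rows.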

Additional observations from a re-analysis of the deposited data

How the results depend on the processing

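Each of the 24 differences of a member was recomputed under 15 alternatives. Of 360 values 329 kept their direction and their side of the threshold, 20 lost a call, 6 gained one and 5 changed direction. The changes of direction were small uncalled differences, each with an array left out: GSC in gamma_ON against gamma_OFF ranged from -0.22 to 0.11, LHX1 there from -0.02 to 0.15, and in gamma_ON against CTRL MESP1 ranged from -0.24 to 0.06 and RIPPLY2 from -0.29 to 0.05. RIPPLY2 accounted for 16 of the 20 lost calls. The number of genes called moved more, and the causes were not tested. The main fit used 1 estimate of the spread for all groups. Array weights were 1.485 for each CTRL array, 1.238 for each gamma_ON array and 0.5441 for each gamma_OFF array, so they differed between groups and not within them. In gamma_ON against CTRL 230 genes were called, 381 with a variance trend and robust fitting, 803 with array weights, 487 in a fit of the groups compared, 382 with dim genes left out, 141 after rescaling of the signal range and 34 to 487 with an array left out. In gamma_OFF against CTRL 1317 were called, 767 with array weights, 567 in a fit of the groups compared and 131 to 3515 with an array left out. Between the H2A.X groups 892 were called, 1596 with trend and robust fitting, 229 with array weights, 275 in a fit of the groups compared, 1876 with dim genes left out, 469 after quantile normalization and 49 to 4061 with an array left out. Among the 3 groups 1238 were called, 2059 with trend and robust fitting, 2196 with dim genes left out and 253 to 4000 with an array left out. The most calls in the last 3 came without gamma_OFF replicate 1. With an array left out its group keeps 1 array, assumed to vary like the others. Where that group was not one of those compared, the fit gave the same values as the fit of the groups compared. These alternatives therefore repeat each other, and the counts of alternatives above include the repeats. With the replicate number as a block 210, 1245, 871 and 1168 genes were called, and no member changed its call; the differences between replicates 1 and 2 correlated across genes at -0.0962, -0.0735 and 0.088 between groups, so the numbers were not taken to pair the arrays. All 8 members passed the filter on dim genes.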

Other observations

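Of the wider T-box family, 1 gene was called in gamma_ON against CTRL, 2 in gamma_OFF against CTRL and 3 between the H2A.X groups. Over all genes 0.739% were called higher and 0.806% lower in gamma_ON against CTRL. The shares were 2.77% and 6.08% in gamma_OFF against CTRL, and 3.98% and 2.02% between the H2A.X groups. Of 14 measured genes besides EOMES, TBX22 rose in gamma_ON against CTRL by 0.82 (SE 0.13, adjusted p = 0.0216, and 0.13 to 0.166 without any 1 CTRL or gamma_ON array), and the median was -0.01. In gamma_OFF against CTRL TBX21 rose by 0.50 (adjusted p = 0.0478, and 0.0842 to 0.211 without any 1 array but gamma_OFF replicate 1) and TBX3 fell, with a median of 0.13. TBX3, a T-box repressor of early mesoderm and amnion, was 1.19 higher in gamma_ON than in gamma_OFF (SE 0.15, adjusted p = 0.00671, and 0.0919 and 0.0621 without gamma_ON replicates 1 and 2). TBX22 was higher by 0.66 (adjusted p = 0.0346) and TBX21 was lower (log2 fold change -0.56, adjusted p = 0.045). Both lost the call without any 1 array but gamma_OFF replicate 1, with adjusted p-values up to 0.208 for TBX22 and 0.289 for TBX21.

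Genes of the presomitic and somitic mesoderm, where RIPPLY2 acts, were mostly not called. Of 12 measured genes limma called 0 in gamma_ON against CTRL, with a median of -0.17. At an unadjusted p under 0.05, 1 was higher and 1 lower, against 8.65% of all genes higher and 6.15% lower. DLL1, a NOTCH ligand gene, had the largest difference, -0.56 (adjusted p = 0.138). In gamma_OFF DLL3 (-0.66, adjusted p = 0.0161) and PAX3 (-0.66, adjusted p = 0.0189) fell, and both lost their call without CTRL replicate 1 (adjusted p = 0.0901 and 0.136) or CTRL replicate 2 (0.123 and 0.069), and DLL3 also without gamma_OFF replicate 2 (0.0549). Between the H2A.X groups UNCX was lower in gamma_ON (-0.51, adjusted p = 0.0447, and 0.0838 to 0.278 without any 1 array but gamma_OFF replicate 1).

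Of 11 genes of the change from epithelial to mesenchymal state, which cells undergo in the streak, limma called 0 in gamma_ON against CTRL. At an unadjusted p under 0.05, 1 was higher and 0 lower, against 8.65% of all genes higher and 6.15% lower. ZEB1 had the largest difference, -0.40 (adjusted p = 0.37). In gamma_OFF FN1 (-1.11, SE 0.13, adjusted p = 0.0048), SNAI2, VIM (-0.84) and ZEB2 (-0.63) fell, and FN1 was called whichever array was left out, while the other 3 were not called without CTRL replicate 1. Of 15 neuroectoderm genes ZIC1 fell in gamma_ON (-0.64, adjusted p = 0.0488, and 0.156 to 0.321 without any 1 CTRL or gamma_ON array), and ZIC1 (-0.67), PAX3 and NES (-0.49) fell in gamma_OFF, each without a call when either CTRL array was left out; OTX1 was lower in gamma_ON than in gamma_OFF (-0.70, adjusted p = 0.0346, and 0.0606 to 0.243 without any 1 array but gamma_OFF replicate 1).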
